A study of Mus musculus with 29 samples.

Results

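The cytoplasmic ribosomal protein genes were taken as the mouse gene symbols that follow the Rpl and Rps naming pattern (the acidic stalk genes Rplp0, Rplp1 and Rplp2 included) and that had at least 100 counts in total. The pattern matched 76 of the 49997 genes in the count table, and all 76 reached that total. Of these, 46 encode proteins of the large subunit and 30 encode proteins of the small subunit. All 76 also passed the low-count filter that left 21768 genes for testing. Rpsa, Fau and Rack1, canonical ribosomal protein genes too, have symbols outside the pattern and are described separately.

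Ribosomal proteins are made in matched amounts and assembled with ribosomal RNA in the nucleolus into the large subunit, which forms peptide bonds, and the small subunit, which decodes the mRNA. Most of their mRNAs begin with a run of C and U bases, the 5′ terminal oligopyrimidine (TOP) tract, through which mTORC1 signalling and the RNA-binding protein LARP1 set their translation and stability. Oocytes store these mRNAs while they grow, and in the mouse they are among the maternal mRNAs that are deadenylated and degraded when meiosis resumes. Smart-seq2 primes cDNA on the poly(A) tail, so loss of an mRNA and shortening of its tail cannot be told apart in these values.

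The libraries were 29 tubes of 10 mouse oocytes or zygotes each. All females were Dhx36 fl/fl, that is, carried floxed alleles of the gene for the G-quadruplex helicase DHX36. Those called WT had no Cre, so the controls carry the floxed alleles too, and those called CKO also carried Zp3-Cre, a transgene whose promoter is active in growing oocytes. Growing oocytes came from 2-week-old females (GO 2W, 3 WT and 3 CKO tubes) and fully grown oocytes from 3-week-old (FGO 3W, 2 and 2) and 4-week-old females (FGO 4W, 3 and 3). Metaphase II oocytes (MII 3W, 3 and 4) and zygotes (zygote 3W, 3 and 3) came from 3-week-old females, and the labels give no genotype for the father. No label says that tubes of a group came from separate females, so the p-values measure the spread between these tubes, which may be technical. In pooled tubes, fewer cells and less RNA per cell cannot be told apart. Values after ± are SD over the tubes of a group.

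Libraries held between 17697507 and 49104313 counts, and between 14691 and 19890 genes had at least 10 counts. Of 10 oocyte markers, 10 stood at a mean of 1 CPM (counts scaled to a common library size) or more in every group. Of 16 granulosa and cumulus markers, between 3 and 8 reached 1 CPM in a group, with Serpine2 the highest and Ptx3 at 0 in all 10 groups. The whole-gene Dhx36 count was called lower in no CKO group, and at MII 3W it stood at 412 ± 15.99 (SD, n = 3) CPM in WT and 1426 ± 1292 (SD, n = 4) CPM in CKO, with an edgeR adjusted p of 0.00197. That count covers the gene's other exons as well as any deleted part, so it does not check the genotype, and every direction given here rests on the labels. A few CKO libraries, 3 in all, stood apart by the share of counts on ribosomal RNA genes, with 8.82% in CKO MII 3W replicate 2, 22.9% in replicate 3 and 28.3% in CKO zygote 3W replicate 1, against 1.63% to 6.88% in the other libraries. Results at these stages are given with and without them.

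The features that the family shares are shown first. In RefSeq promoters of GRCm38.p6, matched by symbol for 56 of the 76 genes, the longest run of C and T on the coding strand within 20 bases of the annotated start was at least 8 bases long in 28 of 56 (50%), against 18.4% of 27025 genes. The 5 sequences below run from 50 bases before to 25 bases after the start, with that run in capitals. Rps27 and Rpl9 had the widest range of levels over the groups among members with an entry, and Rpl15, Rpl13a and Rps15a were among the least variable members of their subunits. They lie at chr3:90213624-90213698, chr5:65391407-65391481, chr14:18270962-18271036, chr7:45128721-45128795 and chr7:118116123-118116197, all on the minus strand.
Rps27: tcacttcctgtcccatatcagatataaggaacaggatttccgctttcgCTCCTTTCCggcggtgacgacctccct
Rpl9: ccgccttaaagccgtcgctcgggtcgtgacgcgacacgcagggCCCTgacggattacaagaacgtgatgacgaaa
Rpl15: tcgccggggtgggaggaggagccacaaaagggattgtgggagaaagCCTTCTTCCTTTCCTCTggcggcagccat
Rpl13a: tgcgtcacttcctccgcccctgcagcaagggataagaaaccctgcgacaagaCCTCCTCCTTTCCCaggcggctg
Rps15a: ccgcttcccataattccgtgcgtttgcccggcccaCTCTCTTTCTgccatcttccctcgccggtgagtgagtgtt
The run was long both in a gene that varied much over the groups (Rps27) and in genes that varied little (Rpl15, Rpl13a), and it was short in Rpl9. Rpl21 also varied widely. The run is a description of these letters, and a TOP tract depends on the start site in use, which was not measured.

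At the other end of the mRNA, the hexamer AATAAA or ATTAAA stood in the last 100 bases of 68 of 76 GENCODE vM21 transcripts (89.5%), against 73.1% of 21725 protein-coding genes. The letters TTTTAT or TTTTAAT, which spell the cytoplasmic polyadenylation element that lets stored oocyte mRNAs regain their tails in maturation, were found on the coding strand of the last 100 bases in 8 of 76 (10.5%), against 16.3%. Of these sites 4 are shown, with the element in capitals, from the member whose WT level was highest at MII 3W relative to FGO 4W to the one whose level was lowest. They lie at chr17:24721877-24721904 (plus strand), chr7:45125576-45125603 (minus), chr3:86137963-86137990 (minus) and chr5:107908968-107908995 (plus) of GRCm38.
Rps2: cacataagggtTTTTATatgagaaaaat
Rpl13a: tttctggaggaTTTTATgtgctaataaa
Rps3a1: aaaatccagatTTTTAATagtgacaaat
Rpl5: ttaactgaactTTTTAATaaatgagtca
A G-quadruplex motif (at least 3 G in each of 4 runs, loops 1 to 7 bases long, coding strand) was found in the transcripts of 3 of 76 members (3.95%), Rpl27, Rps10 and Rpl12, against 16.4% of protein-coding genes. The member transcripts are short, with a median of 778 bases against 2499 over protein-coding genes, and the part of length in this difference was not tested.

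Together the 76 genes took about 1% of all counts in growing and fully grown oocytes and far less after meiosis resumed. Their share was 0.997%, 1.09% and 1.09% in the WT GO 2W libraries and 1.13%, 1.204% and 1.25% in WT FGO 4W. It was 0.1401%, 0.144% and 0.1295% in WT MII 3W and 0.191%, 0.183% and 0.1997% in WT zygotes. The mean WT share was thus 8.67-fold lower at MII 3W than at FGO 4W, 9.29-fold for the large and 7.76-fold for the small subunit, and 1.39-fold higher in zygotes than at MII 3W. WT libraries of the oocyte stages and of the later stages did not overlap.

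In CKO the share was 0.275%, 0.247%, 0.357% and 0.257% at MII 3W and 0.281%, 0.342% and 0.243% in zygotes. All 4 CKO libraries at MII 3W and all 3 in zygotes lay above every WT library of their stage, with means 2.06-fold and 1.51-fold higher. The highest CKO MII share was in replicate 3, which also had the most ribosomal RNA counts of its group. Earlier the differences were small: at FGO 3W the CKO mean was 0.971% against 1.10%, with the libraries apart, and at GO 2W and FGO 4W the genotypes overlapped. Shares of the same libraries are linked to every other gene's counts, so no test was run on them.

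**Figure D1:**
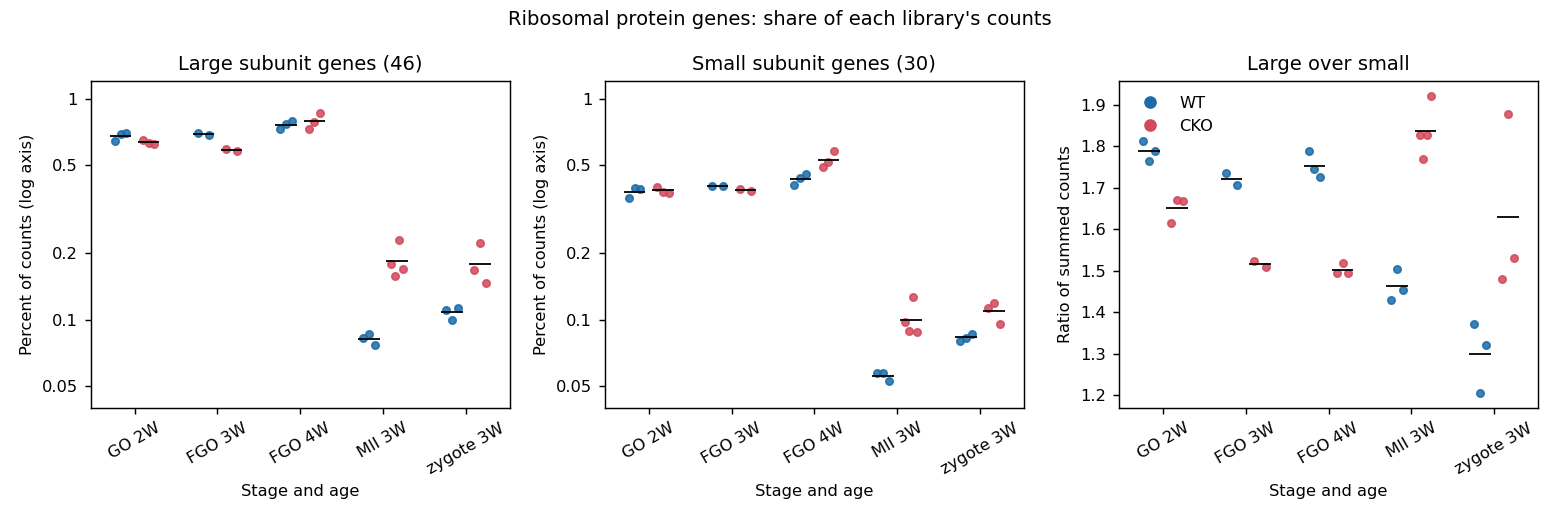
Percent of all counts on the large subunit genes (left, log axis) and the small subunit genes (middle, log axis) and the ratio of large to small subunit counts (right) for each library (points) and group mean (lines), WT blue and CKO red, at the 5 stages. The shares drop from FGO 4W to MII 3W in both genotypes, less so in CKO, and the ratio is below WT in CKO oocytes up to FGO 4W and above WT at MII 3W and in zygotes.

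By summed counts, the balance between the subunits differed between the genotypes at every stage, and in opposite directions before and after maturation. The ratio of large to small subunit counts was 1.79, 1.74 and 1.72 in the WT FGO 4W libraries and 1.49, 1.52 and 1.49 in CKO. It was 1.43, 1.504 and 1.45 in WT MII 3W and 1.83, 1.77, 1.83 and 1.92 in CKO. The CKO libraries lay below all WT libraries at FGO 4W and above all of them at MII 3W. The same held on either side: group means were 1.79 in WT and 1.65 in CKO at GO 2W, 1.72 and 1.52 at FGO 3W, and 1.30 and 1.63 in zygotes, without overlap of libraries. At FGO 4W the small subunit share moved (0.434% in WT, 0.527% in CKO, apart) while the large subunit shares overlapped. These ratios weight each member by its counts. The median log2 change of CKO against WT, from the edgeR fit used below, gives each member equal weight. Over large and small subunit genes it was −0.30 and −0.19 at GO 2W, −0.55 and −0.41 at FGO 3W, and −0.11 and 0.04 at FGO 4W. It was 1.595 and 1.27 at MII 3W. In zygotes it was 0.52 and 0.65, opposite to the ratio. The difference between the subunits was not tested.

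Levels between genes were compared as FPKM, which divides by gene length. The highest mean over the 10 group means belonged to Rpl41 (835 FPKM), a very short basic protein of the large subunit, followed by Rps29 (454), Rps13 (382), Rpl32 (339) and Rpl39 (321). The lowest belonged to Rpl29 (7.92 FPKM), Rpl21 (10.3), Rps20 (10.9), Rpl9 (13.7) and Rps18 (19.8). This order depends on the authors' gene models, whose lengths are implied by the FPKM. They were 3446 bases for Rps20, 2907 for Rpl21, 2196 for Rps18, 1691 for Rpl29 and 725 for Rpl9, against a median of 847 over members. A low FPKM of a gene with a long model need not mean few reads. Rpl21 and Rpl9 have named pseudogenes that hold counts equal to 23.5% and 11.8% of their own, and how reads shared between such copies were counted is not given in the sources used here. In WT FGO 4W the family's FPKM were spread over many members, with a median of 145 and 23.2% of the sum in the top 5 genes. By WT MII 3W the median was 4.69 FPKM and 65 of the 76 members were at 1 FPKM or more, and the top 5 held 53.7% of the sum, Rpl41 alone 34.1%. In CKO MII 3W the median was 19.7 FPKM, with 71 members at 1 FPKM or more and 51.3% in the top 5. WT zygotes were again spread more evenly (26.1% in the top 5, the highest being Rplp2), whereas CKO zygotes held 47.0% in the top 5, with Rpl41 the highest.

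The WT course was examined first, with log2 changes fitted in edgeR over all 10 groups and called at an adjusted p under 0.05. Growth brought little change: from GO 2W to FGO 4W, Rpl37 of the large subunit alone was called, higher, from 139, 148 and 147 CPM to 262, 270.1 and 285 CPM (log2 change 0.91, SE 0.19, adjusted p 0.00642). That is 1 of 76 members, against 2.47% of all tested genes called in this step (1.08% of them lower, where no member was). From FGO 3W to FGO 4W, Rpl35a of the large subunit alone was called (1 of 76 against 0.579%), at 8.603 and 8.34 CPM and 31.2, 33.6 and 34.9 CPM (log2 change 1.97, SE 0.34, adjusted p 0.00225). Both Rpl35a libraries at FGO 3W lay far below the other WT oocyte libraries, and the call was lost when either was left out (adjusted p 0.0757 and 0.125). GO 2W WT libraries, at a mean of 19.6 ± 2.43 CPM, lay between.

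The largest change in the family lay between fully grown and metaphase II oocytes. From FGO 4W to MII 3W in WT, 71 of 76 members fell and 1 rose, against 29.3% and 22.7% of all tested genes (52.1% in either direction). The median member change was −4.32 on the log2 scale, −4.14 over the 46 large subunit and −4.45 over the 30 small subunit genes, where the median of all tested genes was −0.23. Oocytes of 4-week-old and 3-week-old females differ in age too, and against FGO 3W of the same age 69 fell and 1 rose (48.3% of all genes called). Stage and any unlabelled batch cannot be told apart.

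Among the clearest falls by adjusted p was that of Rpl5, which with Rpl11 and 5S ribosomal RNA forms a particle that binds the p53 regulator MDM2, from 689.8, 723 and 746 CPM at FGO 4W to 24.9, 26.5 and 24.5 CPM at MII 3W (log2 change −4.83, SE 0.21, adjusted p 3.28e-16). Rpl36a of the large subunit fell from 63.2, 77.7 and 75.01 CPM to 1.67, 1.72 and 1.45 CPM (log2 change −5.48, SE 0.24, adjusted p 2.96e-16). In both genes the libraries of each group lay close together and the groups far apart.

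Members did not fall alike. Rps27 fell by 7.06 and Rpl19 by 7.01 on the log2 scale, to means of 0.598 ± 0.4797 and 2.24 ± 0.817 CPM, while Rpl15 fell by 0.88 and Rps15a of the small subunit rose by 0.91. The exons of 15 members, Rpl15 among them, overlap those of a protein-coding gene in GENCODE vM21. For Rpl15 that gene is Nkiras1, on the opposite strand. The counting strand is not given, so reads of Rpl15 cannot be told apart from those of Nkiras1 there. Rpl9 held 3 counts over the 3 WT MII libraries, so its fold there is not given. Rps27 (43 counts), Rpl3 (38), Rpl21 (37) and Rpl12 (28) were also low in this group, and their folds carry wide counting error.

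The 5 members that were not lower at WT MII 3W were Rpl22, Rpl41, Rps2, Rps28 and Rps15a, and all 5 were abundant there. Rpl41 stood at 428, 485 and 500.3 CPM in FGO 4W and 374, 385 and 299 CPM at MII 3W (log2 change −0.42, SE 0.31, adjusted p 0.266, not called). Rps15a stood at 152, 175 and 198 CPM and then 341, 327 and 319 CPM (log2 change 0.91, SE 0.20, adjusted p 0.000333), each MII library above each FGO 4W library. That rise was not called by limma on log2(FPKM + 0.1) values (0.31, adjusted p 0.0931). The gene model of Rps15a counted by the authors was 5136 bases long as implied by their FPKM, against a median of 847 over members, so its counts cover more than a usual ribosomal protein mRNA. Rps2, Rps28 and Rpl22 had changes of 0.23, 0.30 and 0.09, none called, and limma on log2(FPKM + 1) values called Rpl22 lower (−0.49, adjusted p 0.0063).

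Members with the TTTTAT or TTTTAAT letters had a median WT change of −3.06 from FGO 4W to MII 3W (8 genes) and those without had −4.54 (68 genes). The 8 ran from Rps2 (0.23) and Rpl13a (−1.18) through Rps3a1 (−1.73) to Rpl5 (−4.83), and the others were Rpl32, Rpl31, Rpl27a and Rps24. The 68 without the letters ran from 0.91 to −7.33. The lower quartile of all 76 members, −5.63, lay below all 8. This is a description of 8 genes with no test.

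**Figure D2:**
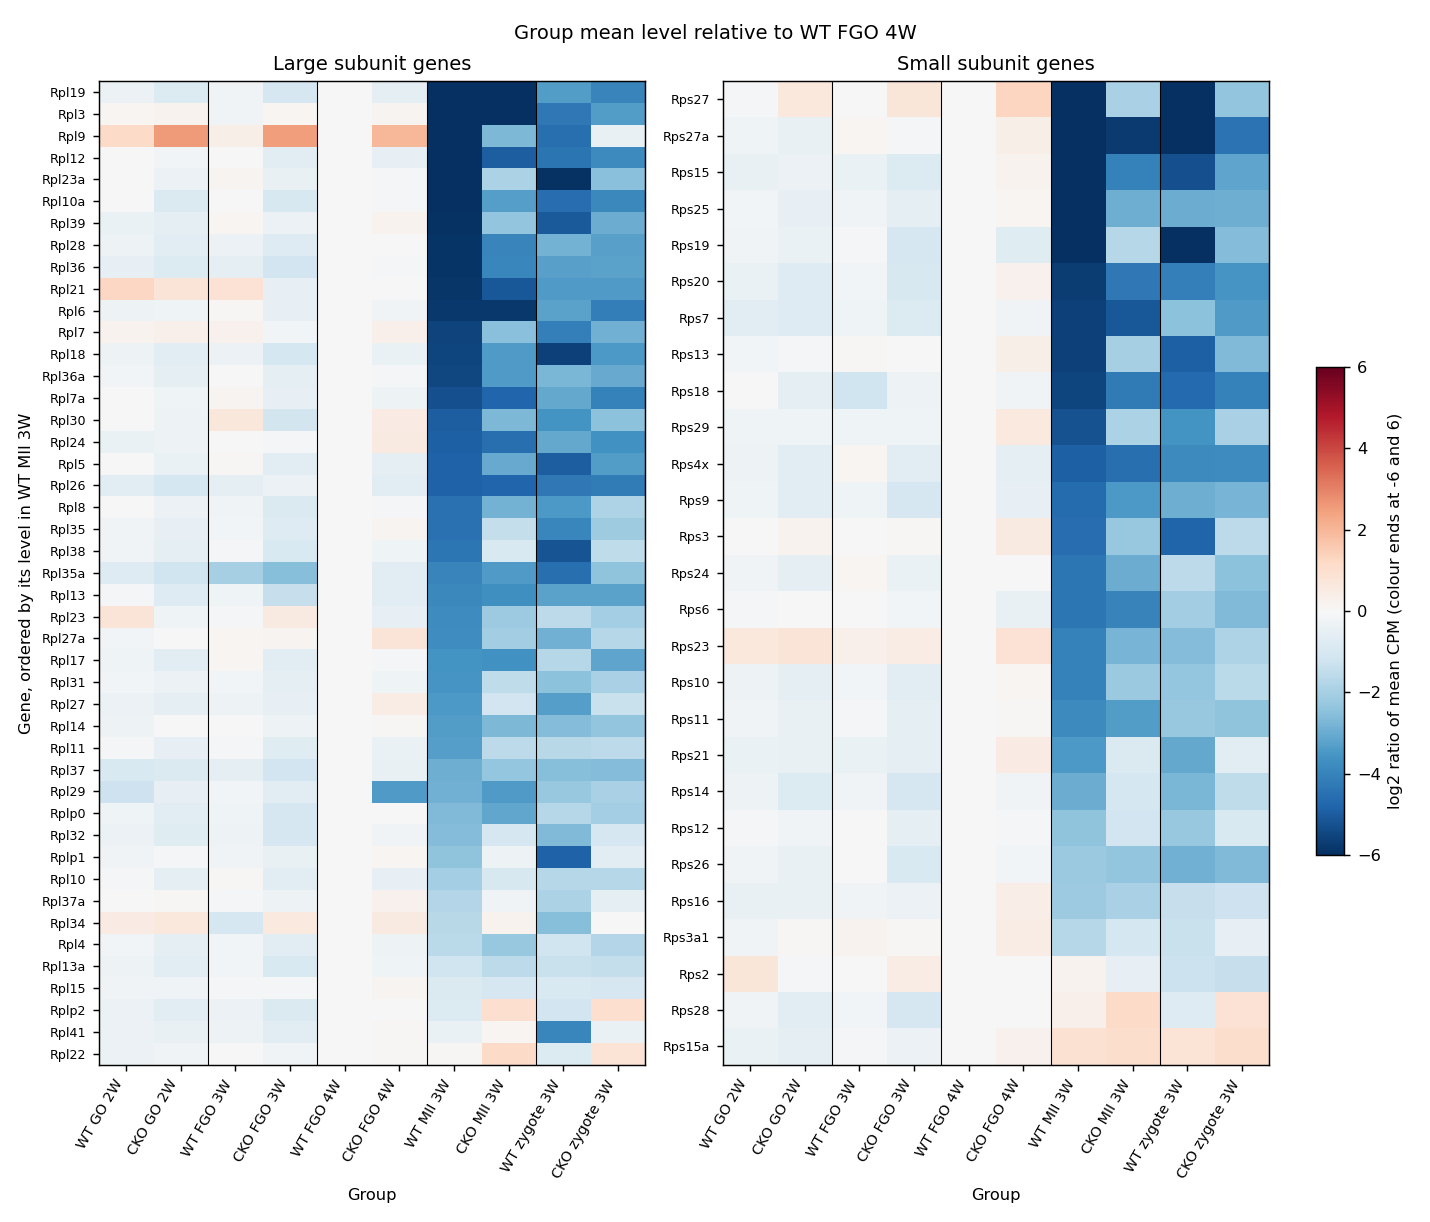
Log2 ratio of each group's mean CPM to WT FGO 4W for 45 large subunit genes (left) and 27 small subunit genes (right), the members shown here by name, with genes as rows in the order of their WT MII 3W level and groups as columns, and colours ending at −6 and 6. Most rows are near 0 in the 6 oocyte groups and strongly negative in WT MII 3W and zygotes, where the CKO columns are paler, and Rpl41, Rps15a, Rps2, Rpl22 and Rps28 stay near 0 at WT MII 3W.

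Between WT MII oocytes and zygotes 39 members rose and 7 fell, against 19.3% and 14.7% of all genes (34% in either direction). The median change was 0.78, with 0.11 over all genes. Of the 71 members that had fallen at MII 3W, 39 rose in zygotes, 3 fell again (Rpl34, Rplp1 and Rps26) and 29 were not called. Both steps use the same WT MII libraries, so the fall and the rise are not independent. Rps25, a small subunit protein needed for translation from some viral internal ribosome entry sites, rose from 1.97, 1.06 and 1.64 CPM to 11.3, 12.4 and 17.5 CPM (log2 change 3.13, SE 0.25, adjusted p 1.65e-10). Rpl28 went from 1.71, 3.44 and 2.25 CPM to 23.2, 15.4 and 22.3 CPM (log2 change 3.05, SE 0.24, adjusted p 8.80e-11). In both genes the zygote libraries lay above all MII libraries and well under the fully grown oocyte level. The exons of Rpl28 overlap those of Ube2s on the opposite strand, so its reads cannot be told apart from that gene's there.

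Rpl41, still high at MII 3W, fell at this later step, from 374, 385 and 299 CPM to 31.8, 30.2 and 30.3 CPM (log2 change −3.52, SE 0.34, adjusted p 3.83e-09), an 11.5-fold lower level with the libraries far apart. Rplp1, which with Rplp2 and Rplp0 forms the acidic stalk that recruits elongation factors, fell from 36.4, 41.1 and 28.7 CPM to 6.17, 6.95 and 6.49 CPM (log2 change −2.44, SE 0.31, adjusted p 3.83e-07). Rps2, at the mRNA entry of the small subunit, fell from 115, 128 and 82.9 CPM to 45.4, 41.9 and 26.4 CPM (log2 change −1.52, SE 0.22, adjusted p 3.14e-06), and Rpl22 from 59.6 ± 3.14 to 32.1 ± 3.598 CPM (log2 change −0.89, SE 0.18, adjusted p 0.000317). Rps15a stayed high, at 284, 307 and 329 CPM in zygotes, and was not called.

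CKO and WT were then compared at each stage. In growing and fully grown oocytes most members were not called, and the share called was near or below that of all genes. At GO 2W 0 members were higher and 4 lower (13.7% of all genes called, 7.34% higher and 6.38% lower), with a median of −0.23. They were Rpl23 (−1.04, adjusted p 0.0262), Rpl10a (−0.85, 0.0321), Rps2 (−0.78, 0.0145) and Rpl13 (−0.65, 0.0390). Each of the calls of Rpl10a, Rpl13 and Rpl23 was lost on leaving out any single library of the stage, and that of Rps2 in 2 of 6 such fits. At FGO 3W, 2 members were higher and 12 lower (17.8% of all genes; 8.19% higher and 9.62% lower), with a median of −0.49 against −0.05 over all genes, and this group rests on 2 tubes per genotype. At FGO 4W, 4 were higher and 5 lower (26.6%; 11.8% and 14.8%), with a median of −0.04. The libraries of the genotypes did not overlap for 51 of 76 members at GO 2W (44% of all genes), 69 at FGO 3W (69%) and 33 at FGO 4W (46.7%). At these 3 stages the summed granulosa and cumulus markers were higher in every CKO library (from 488 to 659 CPM) than in the WT libraries of its stage (from 334 to 536 CPM), most of it Serpine2. The 6 blood markers were higher in CKO there too, without overlap at any of the 3 stages (from 0 to 0.234 CPM in WT and from 0.257 to 3.66 CPM in CKO), with Hbb-bs and Hbb-bt at 0. The 10 oocyte markers were lower in CKO at FGO 4W (from 14700.5 to 19649 CPM against 21073 to 24586 CPM) and FGO 3W, without overlap, and overlapped at GO 2W. TMM factors at FGO 4W ran from 1.05 to 1.13 in WT and from 1.21 to 1.26 in CKO. Whether the marker sums stay apart after that scaling was not examined. The part of these markers in the calls was not tested. The split by direction depends on the scale: limma on log2(FPKM + 1) called 4 higher and 2 lower at GO 2W, 3 and 5 at FGO 3W, and 13 and 1 at FGO 4W, with a median of 0.16 at FGO 4W, and RLE scaling called 6 and 4 at FGO 4W. The number called depends on the model. Fits of the compared groups alone called 5 members higher and 23 lower at GO 2W and 6 and 38 at FGO 3W. In those fits 36.8% and 34.8% of all genes were called.

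Rpl13, a large subunit protein, was the member called lower at 3 stages. It stood at 147, 159 and 154 CPM in WT and 97.1, 99.9 and 96.1 CPM in CKO at GO 2W. At FGO 3W it stood at 143 and 144 CPM and 63.2 and 64.5 CPM (log2 change −1.17, SE 0.26, adjusted p 0.00232). At FGO 4W the values were 155, 174 and 178 CPM and 96.8, 106 and 119 CPM (log2 change −0.66, SE 0.21, adjusted p 0.0217), a call lost in 4 of 6 fits that left out 1 library (adjusted p 0.0558 to 0.0822) and in limma on log2 FPKM. Every CKO oocyte library lay below every WT library of its stage, whereas at MII 3W the genotypes overlapped.

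Rpl30 and Rpl29 differed between the genotypes at different ages. Rpl30, a large subunit protein that in yeast and mammals also binds RNA kink-turns, stood at FGO 3W at 82.6 and 69.6 CPM in WT and 23.5 and 20.9 CPM in CKO (log2 change −1.78, SE 0.32, adjusted p 0.000255). At FGO 4W it stood at 35.8, 63.5 and 44.3 CPM and 67.5, 67.5 and 68.6 CPM (not called). CKO was thus below WT at 3 weeks and above it at 4 weeks, and the difference between the ages passed the test (log2 difference 2.28, SE 0.40, adjusted p 0.000837). Rpl29, also of the large subunit, behaved the other way at 4 weeks, with 24.5, 28.8 and 28.4 CPM in WT and 3.77, 1.83 and 2.21 CPM in CKO (log2 change −3.38, SE 0.49, adjusted p 7.43e-06). In growing oocytes Rpl29 stood at 12.2, 5.46 and 17.2 CPM and 18.96, 20.5 and 18.1 CPM (not called). The FGO 4W change differed from that of GO 2W (log2 difference −4.10, SE 0.65, adjusted p 0.000184) and from that of FGO 3W (log2 difference −2.86, SE 0.71, adjusted p 0.0220), the latter lost in several fits that left out 1 library (adjusted p up to 0.135). These were the calls among members for a change between the 3 oocyte groups: 1 of 76 between FGO 4W and GO 2W (5.37% of all genes, 3.46% in that direction) and 2, in opposite directions, between the 2 ages (2.72%, of which 1.62% were more negative).

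At FGO 3W Rpl34, of the large subunit, was higher in CKO, at 79.4 and 80.8 CPM against 26.5 and 26.1 CPM (log2 change 1.61, SE 0.35, adjusted p 0.00169). Its named pseudogenes hold counts equal to 30.1% of its own, and with them added the difference was 0.12 (adjusted p 0.803). Rplp0 and Rpl13a were lower at the same stage (log2 change −0.75, SE 0.21, adjusted p 0.0107 and log2 change −0.76, SE 0.19, adjusted p 0.00564), with libraries apart. With 1 of the 4 libraries left out, the call of Rplp0 was lost in 3 of 4 fits and that of Rpl13a in 2 of 4, and limma on log2 FPKM did not call Rplp0.

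**Figure D3:**
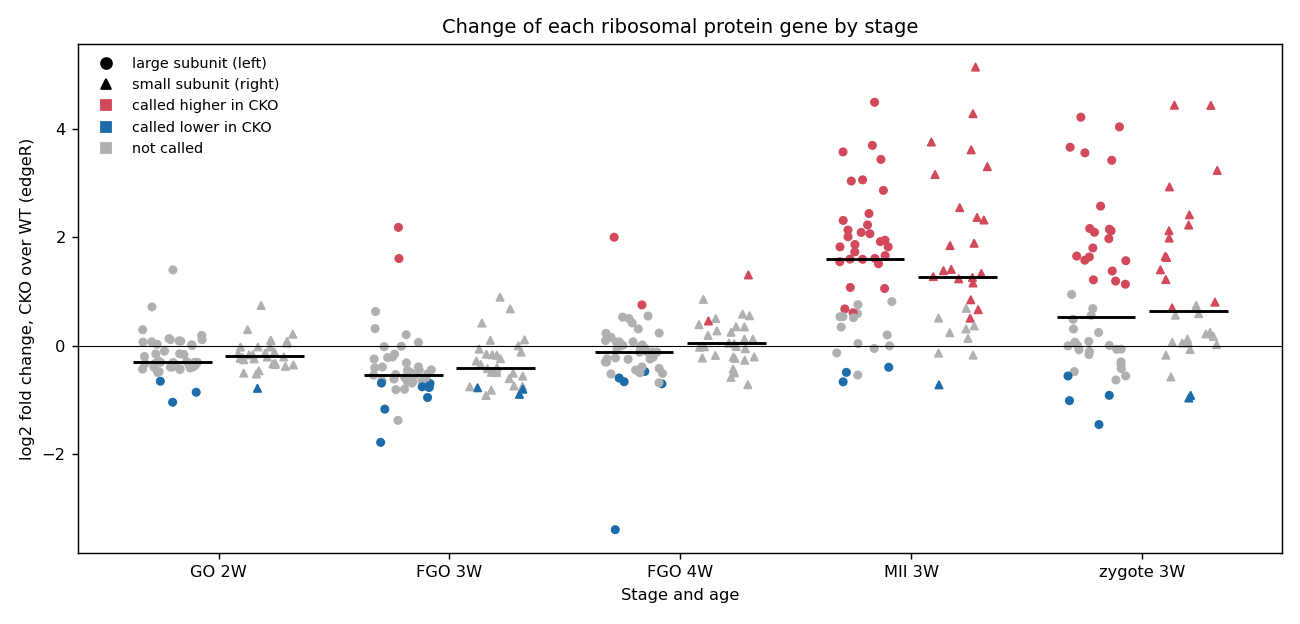
Log2 change of CKO against WT of each member at the 5 stages, large subunit genes as circles and small subunit genes as triangles, called members in red (higher) or blue (lower) and the others grey, with the median as a black line. Points centre near 0 or below it in oocytes and mostly lie above 0 at MII 3W (median 1.40) and in zygotes (median 0.58).

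At MII 3W 51 of 76 members were higher in CKO than in WT and 4 were lower, against 18.2% and 14.7% of all genes (32.9% in either direction). The median change was 1.40, with 0.13 over all genes. By subunit, 30 of 46 large subunit genes were higher and 3 lower (median 1.595), and 21 of 30 small subunit genes were higher and 1 lower (median 1.27). For 53 of 76 members the libraries of the genotypes did not overlap, against 37.5% of all genes. Without the libraries rich in ribosomal RNA the counts were 47 higher and 4 lower, with a median of 1.21. Among the members named by the rule given below, the calls of Rplp0 (lower) and Rps18 (higher) were lost. Changes of call in other members are not listed. Without TMM scaling, the summed level of the 16 granulosa and cumulus markers ran from 788 to 805 CPM in WT MII libraries and from 515 to 933 CPM in CKO, an overlap. TMM factors ran from 0.703 to 0.715 in WT and from 0.731 to 0.860 in CKO, so the overlap may not hold after that scaling. Amh, Foxl2, Fst, Hsd17b1 and Ptx3 stood at 0 in both groups. The 6 blood markers ran from 0.0632 to 0.373 CPM in WT and from 0.532 to 2.55 CPM in CKO, most of it Ptprc, and the 10 oocyte markers from 16776 to 17448 CPM and from 13051 to 20288 CPM. Their part in the result was not tested. Of the 71 members that fell in WT at maturation, 49 were higher in CKO at MII 3W, much as the 51 of all 76. Both calls rest on the same 3 WT MII libraries, so they are not independent. The share of all genes with both calls was not counted. The levels in CKO were still far below those of oocytes: the median ratio of FGO 4W over MII 3W mean CPM over members was 19.98 in WT and 6.58 in CKO.

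Among the members with the smallest adjusted p were 4 small subunit genes. Rps27, a small subunit protein with a zinc finger (chromosome 3, 90212667 to 90213648), stood at 0.379, 1.15 and 0.267 CPM in WT and 24.3, 13.9, 29.7 and 14.4 CPM in CKO MII oocytes (log2 change 5.13, SE 0.46, adjusted p 2.19e-09). Rps25 stood at 1.97, 1.06 and 1.64 CPM and 17.4, 10.7, 18.2 and 9.68 CPM (log2 change 3.15, SE 0.25, adjusted p 2.82e-10). The lowest CKO library was several times the highest WT library in both genes. Rps29, another zinc finger protein of the small subunit, stood at 6.86, 5.83 and 6.55 CPM and 58.4, 45.4, 98.3 and 50.8 CPM (log2 change 3.30, SE 0.26, adjusted p 2.82e-10), and Rps13 differed to a like extent (log2 change 3.61, SE 0.31, adjusted p 1.60e-09). The exons of Rps25 overlap those of 2 protein-coding genes on the opposite strand, Trappc4 among them. The counting strand is not given, so the reads of Rps25 cannot be told apart from those of these genes there.

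Rps19, a small subunit protein mutated in human Diamond-Blackfan anaemia (chromosome 7, 24884592 to 24889811), changed direction with stage. It stood at 84.2, 83.7 and 94.95 CPM in WT and 51.2, 52.5 and 56.4 CPM in CKO at FGO 4W (log2 change −0.72, SE 0.33, adjusted p 0.109, not called). At MII 3W it stood at 1.29, 1.94 and 0.991 CPM and 25.6, 17.8, 38.9 and 26.4 CPM (log2 change 4.27, SE 0.39, adjusted p 3.04e-09). CKO was the lower genotype in each FGO 4W library and the higher in each MII library, and the change between the stages passed the test (log2 difference 4.99, SE 0.50, adjusted p 7.11e-08). Named Rps19 pseudogenes hold counts equal to 10.1% of its own.

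Not all members were higher in CKO at MII 3W. The 4 lower ones were Rpl4 (log2 change −0.66, SE 0.15, adjusted p 0.00133), Rps2 (log2 change −0.72, SE 0.20, adjusted p 0.00638), Rplp0 (log2 change −0.49, SE 0.16, adjusted p 0.0168) and Rpl13a (log2 change −0.39, SE 0.15, adjusted p 0.0379). Rps2, at 115, 128 and 82.9 CPM in WT and 65.03, 65.2, 63.98 and 69.9 CPM in CKO, was among the members not lower at WT MII 3W, and its call was lost without WT replicate 2 (adjusted p 0.0569) and on log2(FPKM + 1) values in limma (adjusted p 0.0545). Rplp0 stood at 62.7, 64.2 and 55.7 CPM and 46.9, 47.2, 31.2 and 48.2 CPM, the lowest value being that of the CKO library with 22.9% ribosomal RNA counts. Rpl13a overlapped between the genotypes, and the calls of Rplp0 and Rpl13a were lost in several fits that left out 1 library. Of the other abundant members, Rpl41 and Rps15a were not called at this stage (0.54 and 0.14).

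**Figure D4:**
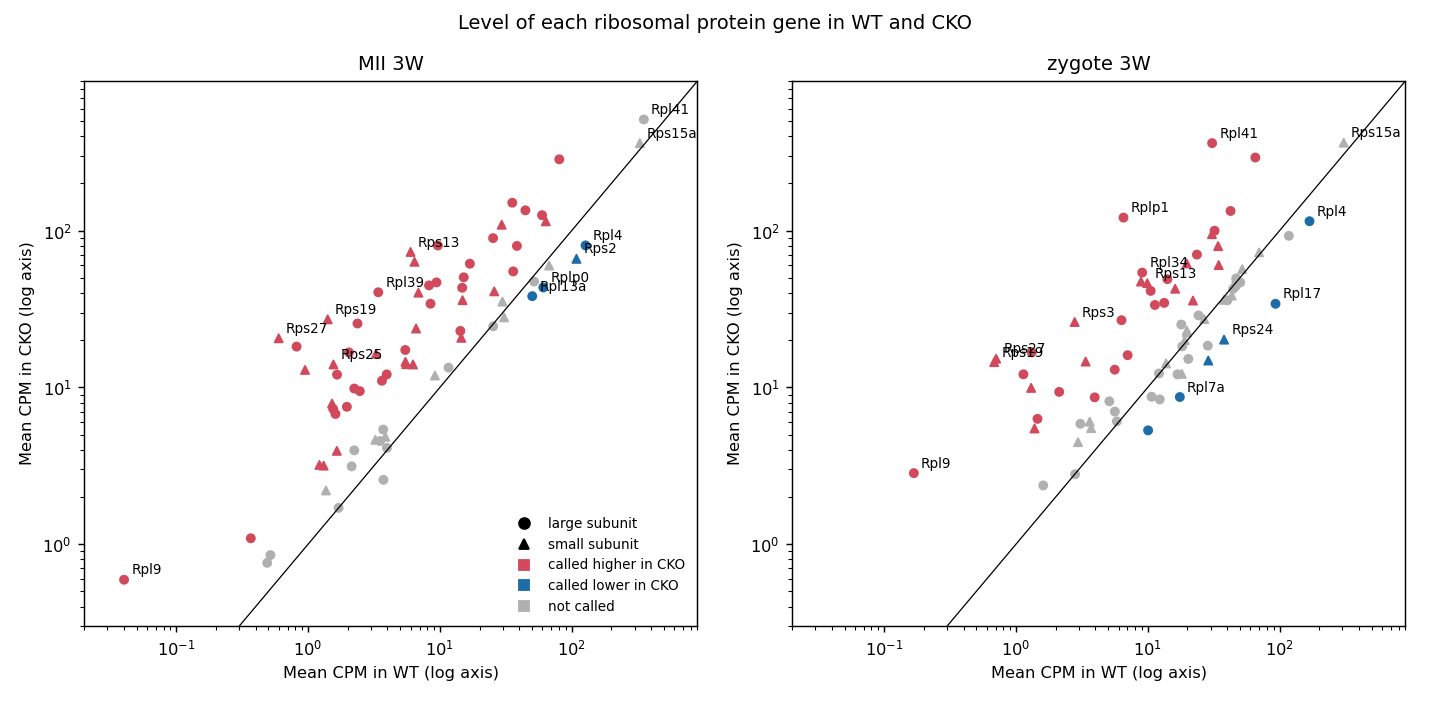
Mean CPM of each member in WT (x axis, log) and CKO (y axis, log) at MII 3W and in zygotes, with the diagonal marking equal levels. Most members that are low in WT MII oocytes, such as Rps27 and Rps19, lie above the diagonal, while Rps15a lies near it in both panels and Rpl41 and Rplp1 lie above it in zygotes.

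The genotype change itself differed between stages in many members. Against FGO 4W, 51 of 76 members had a change at MII 3W that was more positive and 0 one that was more negative (17.7% of all genes called, 11.6% more positive and 6.11% more negative). Without the libraries rich in ribosomal RNA these were 46 and 1. Examples are Rps25 (log2 difference 3.03, SE 0.32, adjusted p 1.89e-07) and Rpl5 (log2 difference 2.41, SE 0.26, adjusted p 1.74e-07), the last being lower in CKO at FGO 4W (log2 change −0.59, SE 0.18, adjusted p 0.0167, lost in 2 of 6 fits that left out 1 library) and higher at MII 3W. At MII 3W Rpl5 stood at 24.9, 26.5 and 24.5 CPM in WT and 99.9, 65.96, 103 and 89.3 CPM in CKO.

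In zygotes 34 of 76 members were higher in CKO and 6 lower, against 14.5% and 12.5% of all genes (27% in either direction), with a median of 0.58 where all genes had 0.08. Limma on log2(FPKM + 1) called 33 higher and 11 lower. Of the large subunit genes 20 were higher and 4 lower, and of the small subunit genes 14 were higher and 2 lower. Without the libraries rich in ribosomal RNA 35 were higher and 10 lower, with a median of 0.48. Libraries of the genotypes were apart for 38 of 76 members, against 30.3% of all genes. The summed granulosa and cumulus markers ran from 417 to 474 CPM in WT and from 195 to 406 CPM in CKO zygotes, and 6 blood markers from 0 to 0.0822 CPM in WT and from 0.0959 to 37.0 CPM in CKO (the highest in replicate 3, mostly Lyz2). The 10 oocyte markers ran from 11669 to 12573 CPM in WT and from 5775 to 10241 CPM in CKO zygotes, without overlap. The part of these markers in the result was not tested. CKO zygotes varied more among themselves than any other group, with correlations between replicates from 0.902 to 0.932. In all, 31 members were higher in CKO at both MII 3W and zygote 3W, which compare separate tubes. How many of all genes were higher at both was not counted, so this number is not set against a background.

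Rps27 and Rps19 were again among the largest differences: Rps27 stood at 0.497, 0.744 and 0.879 CPM in WT and 4.62, 17.9 and 23.2 CPM in CKO zygotes (log2 change 4.43, SE 0.46, adjusted p 6.03e-08). Rps19 stood at 1.09, 0.175 and 0.781 CPM and 5.45, 20.5 and 17.5 CPM (log2 change 4.43, SE 0.43, adjusted p 2.05e-08). The lowest CKO value of both genes was that of replicate 1, with 28.3% ribosomal RNA counts, and it still lay above all WT values. Rps3, a small subunit protein with DNA repair functions as well, stood at 3.33, 2.54 and 2.49 CPM and 19, 17.6 and 41.8 CPM (log2 change 3.23, SE 0.25, adjusted p 1.0e-09).

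Rpl41 and Rplp1, both of which fell in WT between MII 3W and zygotes, differed strongly there. Rpl41 (chromosome 10, 128548110 to 128549168) stood at 31.8, 30.2 and 30.3 CPM in WT zygotes and 430.1, 553 and 101 CPM in CKO zygotes (log2 change 3.55, SE 0.34, adjusted p 2.05e-08). Rplp1 stood at 6.17, 6.95 and 6.49 CPM and 107, 199 and 57.2 CPM (log2 change 4.21, SE 0.33, adjusted p 1.0e-09). In both genes every CKO zygote lay above every WT zygote, and CKO replicate 3 was closest to WT. The change of Rpl41 from MII 3W to zygotes differed between the genotypes (log2 difference 3.02, SE 0.43, adjusted p 1.50e-05), as did those of Rplp1 (log2 difference 2.12, SE 0.40, adjusted p 0.000453) and Rpl35a (log2 difference 1.58, SE 0.43, adjusted p 0.0112). The call of Rpl35a was lost without WT or CKO zygote replicate 2 (adjusted p 0.0530 and 0.0534) and in the fit of the compared groups alone (0.159). These were the 3 members whose genotype change was more positive in zygotes than at MII 3W.

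Far more members, 22 of 76, had a less positive or more negative genotype change in zygotes than at MII 3W (15.7% of all genes called; 7.49% more positive and 8.2% more negative). Without the libraries rich in ribosomal RNA 5 were more positive and 25 more negative. Rps25, 3.15 higher on the log2 scale in CKO at MII 3W, stood at 11.3, 12.4 and 17.5 CPM in WT zygotes and 12.2, 12.5 and 17.96 CPM in CKO zygotes, an overlap (log2 difference −3.10, SE 0.33, adjusted p 1.76e-07). The WT zygotes had levels like those of both CKO groups. Rpl28 (log2 difference −2.36, SE 0.31, adjusted p 4.81e-06) and Rpl36a (log2 difference −2.36, SE 0.29, adjusted p 1.83e-06) had changes in the same direction, and in both the WT zygotes lay above all CKO MII libraries.

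In CKO zygotes 6 members were lower than in WT. Rpl17, a large subunit protein near the exit tunnel, stood at 97.98, 76.9 and 104 CPM in WT and 42.5, 20.3 and 39.6 CPM in CKO zygotes (log2 change −1.45, SE 0.18, adjusted p 1.07e-06), with no overlap, after nearly equal values at MII 3W. Rpl7a (log2 change −1.01, SE 0.21, adjusted p 0.000747), Rps24 (log2 change −0.91, SE 0.22, adjusted p 0.00219) and Rps7 (log2 change −0.96, SE 0.27, adjusted p 0.00943) were also lower with libraries apart, and Rpl6 and Rpl4 were lower with an overlap. The call of Rps7 was lost without WT replicate 3 (adjusted p 0.101), without CKO replicate 2 (0.0602) and in the fit of the compared groups alone (0.174). The last fit also lost the calls of Rps24 (0.0776) and Rpl6 (0.210). That of Rpl6 was lost as well in 1 of 6 fits that left out 1 library. The named pseudogenes of Rps7 hold counts equal to 27.7% of its own.

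Rpl9, a large subunit protein, was called higher in CKO at 4 of the 5 stages, but from few counts. It stood at 5.03, 3.66 and 3.01 CPM in WT and 13.6, 20.95 and 12.3 CPM in CKO at FGO 4W (log2 change 2.00, SE 0.63, adjusted p 0.0187). With 1 library left out, its call was lost in 3 of 6 fits at FGO 4W, in all 4 at FGO 3W and in 2 of 7 at MII 3W. At GO 2W it stood at 8.86, 6.52 and 10.4 CPM and 25.4, 19.5 and 23.2 CPM (not called). Every CKO oocyte library lay above every WT library of its stage. At MII 3W it stood at 0, 0.0442 and 0.0762 CPM and 0.464, 0.297, 1.298 and 0.313 CPM. In CKO zygotes 161 of its 179 counts lay in replicate 3, and the zygote call was lost without that library (1.41, adjusted p 0.162). With pseudogene counts added, its FGO 3W and MII 3W calls were lost (adjusted p 0.0583 and 0.0506). Rpl27a, Rpl34, Rps27 and Rps3a1 were higher at 3 stages each. The FGO 4W call of Rps3a1 (log2 change 0.46, edgeR adjusted p 0.0303) was lost in 5 of 6 fits that left out 1 library. In all, 10 members were called at no stage, among them Rpl3, Rpl15, Rpl19, Rpl21, Rps4x, Rps6, Rps15a, Rps16 and Rpl24. Rpl10, Rpl10a, Rpl23, Rpl30, Rpl5, Rpl8, Rps14, Rps20 and Rps24 were called in opposite directions at different stages. Several of these patterns rest on unstable oocyte calls. Those of Rpl10a and Rpl23 at GO 2W were lost in 6 of 6 fits that left out 1 library. At FGO 4W that of Rpl10 was lost in 5 of 6 and that of Rpl5 in 2 of 6. The FGO 3W call of Rps20 was lost with RLE scaling and without the low-count filter. The shares of all genes with these patterns over stages were not counted.

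**Figure D5:**
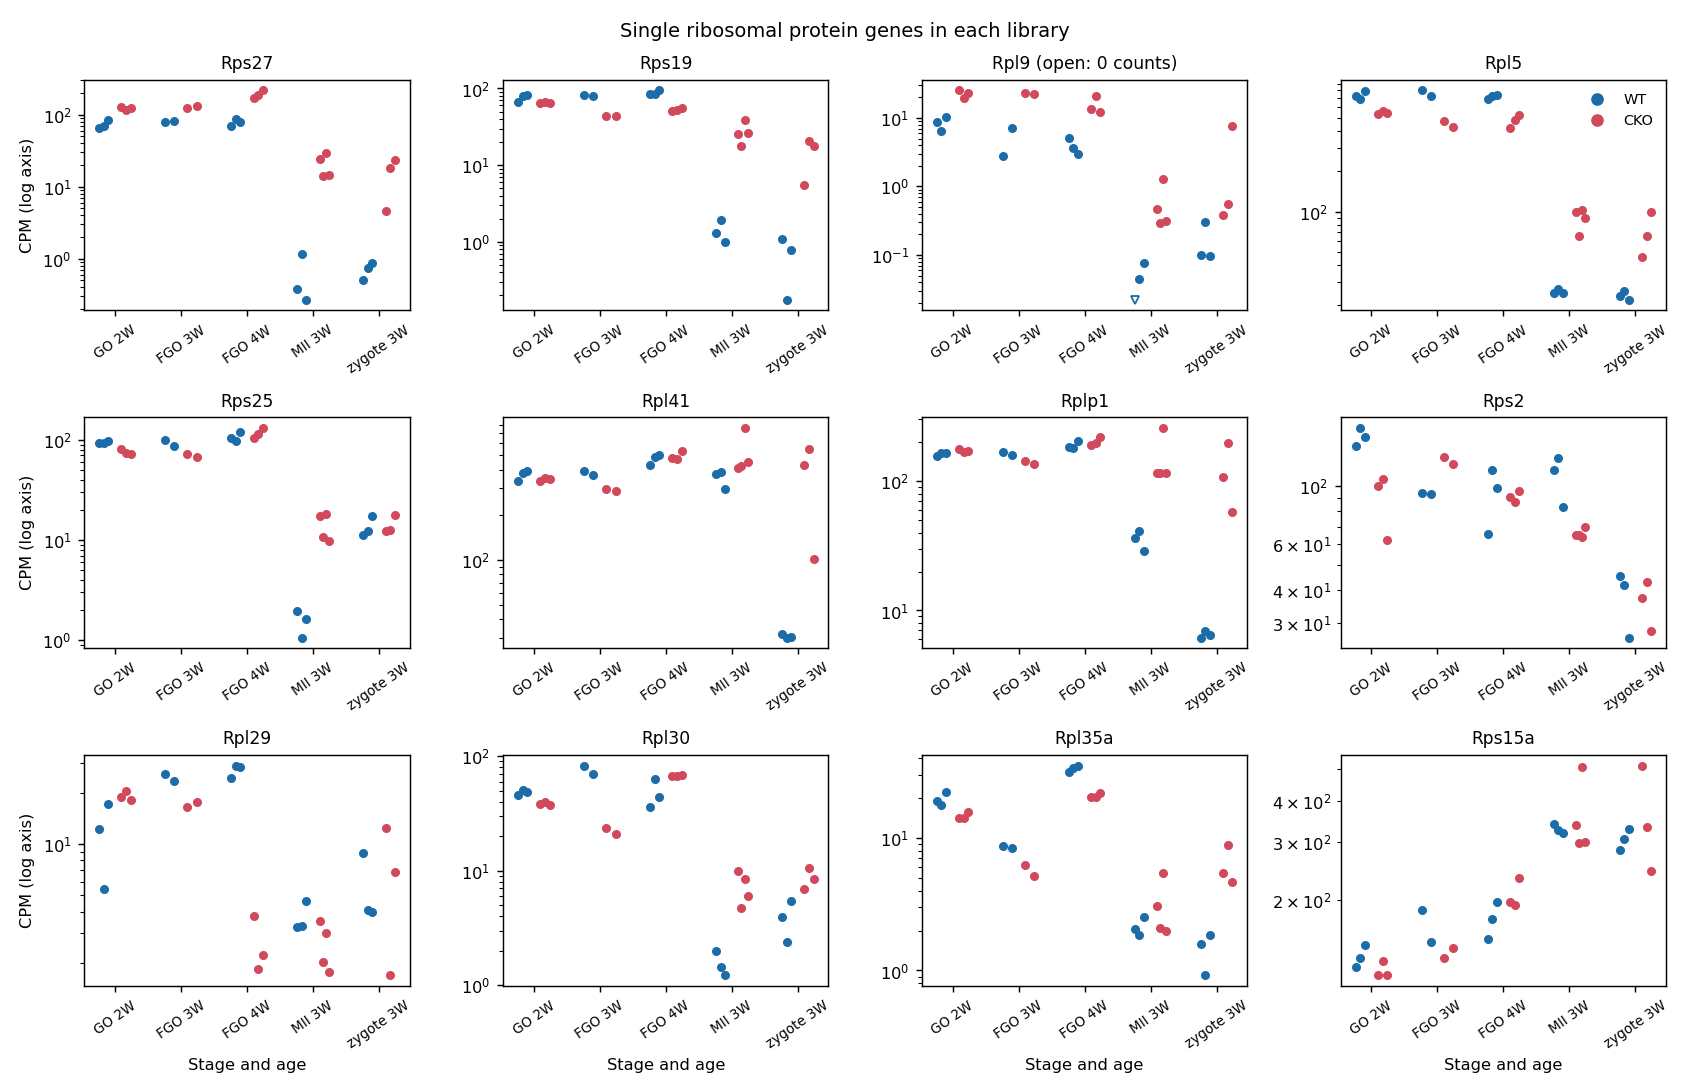
CPM per library (log axis) of 12 members at the 5 stages, WT blue and CKO red, with open markers for libraries at 0 counts (Rpl9). Rps27, Rps19 and Rps25 drop steeply in WT at MII 3W and less in CKO, Rpl41 and Rplp1 drop in WT zygotes and less in CKO, Rps2 and Rps15a stay high in WT at MII 3W, and Rpl29 is low in CKO at FGO 4W.

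Related genes outside the family were counted from lists chosen for their function. Among canonical ribosomal protein genes named outside the pattern, Rpsa, a small subunit protein also known as the laminin receptor, stood at 1.14, 1.77 and 1.22 CPM in WT and 8.22, 8.19, 18.2 and 8.698 CPM in CKO MII oocytes (log2 change 2.98, SE 0.40, adjusted p 1.46e-06). Fau, a ubiquitin-like fusion of a small subunit protein, stood there at 12.2, 14.1 and 11.97 CPM and 50.3, 38.9, 76.4 and 46.4 CPM (log2 change 2.06, SE 0.21, adjusted p 2.22e-08). Both genes had the CKO libraries above all WT libraries. Rack1, a scaffold protein of the small subunit head, went the other way at MII 3W, at 159, 146 and 143 CPM and 98.8, 107, 88.3 and 88.2 CPM (log2 change −0.64, SE 0.12, adjusted p 0.000124).

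Of the 16 other genes with TOP mRNAs, which encode elongation factors and the like, 6 were higher and 6 lower at MII 3W (18.2% and 14.7% of all genes), and 1 was higher and 4 lower in zygotes (14.5% and 12.5%). In oocytes 0 were higher and 3 lower at GO 2W, 0 and 5 at FGO 3W, and 2 and 3 at FGO 4W. Of 66 ribosome assembly genes, 16 were higher and 16 lower at MII 3W and 11 higher and 20 lower in zygotes, against the same shares of all genes. At GO 2W 4 of them were higher and 11 lower (7.34% and 6.38% of all genes), at FGO 3W 3 and 8 (8.19% and 9.62%) and at FGO 4W 13 and 10 (11.8% and 14.8%). Among them Ebna1bp2, a nucleolar factor of large subunit assembly, was higher in CKO at MII 3W, at 91.5 ± 5.71 CPM against 35.8 ± 0.909 CPM (log2 change 1.35, SE 0.13, adjusted p 1.13e-08). Pno1, a small subunit assembly factor, was lower, at 21.6 ± 2.52 CPM against 63.2 ± 4.15 CPM (log2 change −1.55, SE 0.16, adjusted p 1.97e-08). Sbds, which helps release the factor eIF6 from new large subunits, was lower in CKO at GO 2W (log2 change −0.57, SE 0.12, adjusted p 0.00160) and FGO 3W (log2 change −0.85, SE 0.15, adjusted p 0.000173), and Bop1, another large subunit assembly factor, was higher at FGO 4W (log2 change 1.76, SE 0.30, adjusted p 8.14e-05). Of 20 genes that control TOP mRNAs through mTORC1, 3 were higher and 0 lower at GO 2W, 4 and 4 at FGO 3W, 3 and 2 at FGO 4W, 6 and 5 at MII 3W, and 6 and 2 in zygotes. Eif4ebp1, which encodes the translation repressor 4E-BP1, a target of mTORC1, passed the test as higher in each of the 5 genotype comparisons. Growing oocytes had 1.59, 1.52 and 3.41 CPM in WT and 35.5, 23.1 and 25.4 CPM in CKO (log2 change 3.68, SE 0.34, adjusted p 4.51e-08), and MII oocytes had 1.59, 1.46 and 1.37 CPM and 14.97, 16.8, 17.4 and 19.6 CPM (log2 change 3.54, SE 0.34, adjusted p 7.08e-09). Its log2 change was 2.85 at FGO 3W, 2.64 at FGO 4W and 3.21 in zygotes, and at every stage each CKO library lay above each WT library. Rptor, a subunit of mTORC1, was higher at GO 2W (log2 change 1.28, SE 0.25, adjusted p 0.000911). Of the genes for the mTORC1 inhibitor TSC, Tsc2 was lower at FGO 3W (log2 change −1.51, SE 0.27, adjusted p 0.000231) and Tsc1 higher at FGO 4W (log2 change 1.06, SE 0.15, adjusted p 5.67e-06). Of 7 tested ribosomal protein paralogs (Rpl22l1 and Rps27l among them), 5 were higher and 0 lower at MII 3W, and 0 higher and 2 lower in zygotes.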

How the data were processed

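Poly(A) RNA was sequenced by Smart-seq2 in 29 libraries of 10 groups. The counts deposited by the authors are unnormalized read counts of 49997 gene symbols. The submitters' processing notes name Trim Galore, FastQC and HISAT2, with SAMtools, featureCounts and the build mm10; versions, annotation, strand setting and the treatment of reads that map to several places are not given in the sources used here. Of counts from 1 to 20, 81.0% were even, so counts may stand for read ends and 1 fragment for 2 counts. FPKM values come from the authors too and equal count over gene length and library total within a relative tolerance of 1e-09 on 8111 genes, and were used for levels between genes. No spike-in row was in the count table, so levels are relative to the other RNA of a library.

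The fit used edgeR 4.0.16 under R 4.3.3, TMM scaling, filterByExpr (minimum count 10, 21768 genes), trended dispersion and 1 quasi-likelihood model of all 10 groups with 19 residual degrees of freedom. The comparisons were CKO against WT at 5 stages, 4 steps between WT stages and 4 differences of the genotype change between stages. P-values were adjusted by Benjamini-Hochberg over all tested genes, with a threshold of 0.05. CPM are counts over the TMM-scaled library size. The code was tested on simulated data. Alternatives were no low-count filter, RLE scaling, DESeq2 1.42.0, limma 3.58.1 on log2 FPKM with pseudocounts of 1 and 0.1, fits of the compared groups alone, a replicate block, counts without ribosomal RNA genes or with named pseudogenes added, and leaving out libraries.

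The members, the gene lists and the tests were chosen with earlier results of these data known. Members named with values were the 5 called genes with the smallest adjusted p in each direction per genotype comparison, 4 per step or difference, the 5 highest and 5 lowest by FPKM, the 5 with the widest range and those called in one direction at 3 or more stages; a few genes are not reported here by name, and others are named to account for a count and were chosen after their values were seen. Promoters came from RefSeq on GRCm38.p6 and transcripts from GENCODE vM21. Protein sequences were not used here. Values are limited by counting error where a group holds few counts, and reads carry no molecular identifiers.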

Additional observations from a re-analysis of the deposited data

Results flagged for a closer look

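CKO MII 3W, the single group of 4 libraries, was searched for a library far from the others in 23 values, and 4 had one. Chance gives about 1 in 20 for a single value. The 23 values come from the same 4 libraries and are not independent, so the 4 cannot be set against that rate. All 4 lay in replicate 3, in which ribosomal RNA genes took 22.9% of counts: Rpl41 stood at 761 CPM, Rplp1 at 257.5 CPM and Rpl9 at 1.298 CPM, above the other 3 libraries, and Rplp0 at 31.19 CPM, below them. Without the libraries rich in ribosomal RNA 47 members were called higher and 4 lower at MII 3W, and the call of Rplp0 was lost (−0.3492, adjusted p 0.0862).

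The genotype change of members differed between stages by a test of the difference itself. It was called for 51 members between MII 3W and FGO 4W, for 25 between zygote 3W and MII 3W, for 2 between FGO 4W and FGO 3W (Rpl29 and Rpl30) and for 1 between FGO 4W and GO 2W (Rpl29). From FGO 4W to MII 3W the change moved up in CKO relative to WT for Rps19 by 4.99 on the log2 scale, for Rps25 by 3.032 and for Rpl5 by 2.415. From MII 3W to zygotes it differed by 3.016 for Rpl41, 2.122 for Rplp1 and 1.582 for Rpl35a. It differed in the negative direction by −3.105 for Rps25, −2.365 for Rpl28 and −2.361 for Rpl36a. Rps25 thus moved up and then down, and its CKO zygotes overlapped with WT. Both moves use the same MII 3W libraries, so they are not independent.

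Between the oocyte groups the change at FGO 4W differed from that at GO 2W by −4.101 for Rpl29. Against FGO 3W it differed by −2.856 for Rpl29 and by 2.28 for Rpl30. The FGO 3W group has 2 libraries per genotype.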

How the results depend on the processing

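At MII 3W and in zygotes the excess of members higher in CKO kept its direction in every alternative run. Counts at MII 3W ran from 46 (without CKO replicate 3) to 57 when 1 library was left out, and those in zygotes from 38 to 42. With 1 library left out, 71 to 72 members were called between WT FGO 4W and MII 3W, 43 to 47 between WT MII 3W and zygotes, 41 (without CKO MII 3W replicate 3) to 52 for the change from FGO 4W to MII 3W and 22 to 33 (without CKO zygote replicate 1) for that from MII 3W to zygotes. Without the 3 libraries rich in ribosomal RNA 51 members were called at MII 3W, 45 in zygotes, 47 for the former change and 30 for the latter.

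The oocyte counts were less stable. Leaving out 1 library gave 0 to 1 calls at GO 2W (4 in the full data), 3 to 9 at FGO 3W (14), where the lone library left is assumed to vary like the other groups, and 5 to 8 at FGO 4W (9; 5 without WT replicate 3 or CKO replicate 2). It gave 1 to 4 for WT FGO 4W against GO 2W (4 without WT FGO 4W replicate 2), 0 to 1 for WT FGO 4W against FGO 3W, 1 to 2 for the change between FGO 3W and FGO 4W and 1 for that between GO 2W and FGO 4W. Fits of the compared groups alone called 28 members at GO 2W (5 higher; 36.8% of all genes), 44 at FGO 3W (6 higher; 34.8%) and 29 at FGO 4W (15 higher; 41.0%), 5 for WT FGO 4W against GO 2W, 12 for the change from GO 2W to FGO 4W and 16 for that from FGO 3W. Without the low-count filter 14 were called at FGO 4W, 6 for WT FGO 4W against GO 2W and 3 against FGO 3W. DESeq2 called 3 and 2 in these WT steps. Limma on log2(FPKM + 1) called 8 at FGO 3W, 14 at FGO 4W and 5 for WT FGO 4W against GO 2W, and with 0.1 added it called 7, 12 and 2. The cause of these differences was not tested.

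On the FPKM scales the member median at FGO 4W turned from −0.04 to 0.1587 and 0.161, and Rpl22 was lower at WT MII 3W (−0.4874 and −0.509). That scale moved the all-gene median between WT FGO 4W and MII 3W from −0.2323 to −0.4301 and −0.5976, and in CKO zygotes against WT from 0.07801 to −0.1192 and −0.1702. The share of counts on members was 1.045% in CKO GO 2W, 1.13% in WT FGO 3W, 0.9898% in CKO FGO 3W and 0.2014% in WT zygotes without ribosomal RNA genes, and 1.061%, 1.151% and 1.015% in the first 3 with pseudogenes added.

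Same-numbered WT and CKO libraries of a stage correlated in their deviations from the group means at −0.0797 to 0.0392. With so few libraries per group, these values cannot show whether same-numbered tubes were handled together. With the replicate number as a block within stages the counts were 3 at GO 2W, 16 at FGO 3W, 7 at FGO 4W, 54 at MII 3W and 41 in zygotes, and a block across stages gave 2 for WT FGO 4W against GO 2W.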
